A study of Mus musculus with 2 samples.

Results

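The genes described here are listed under the trafficking of odorant receptors (ORs) and the feedback that locks in the choice of a receptor. They are Rtp1, Rtp2, Reep1 and Reep6 for trafficking and Eif2ak3, Atf5 and Kdm1a for feedback, 7 of the 21755 protein-coding genes on chromosomes 1 to 19 and X. They were chosen by name under these headings, by a rule that used no measured value. Earlier results of these data were, however, known when the set was proposed. In situ Hi-C, which counts contacts between pieces of chromatin by ligation, was made from primary mature olfactory sensory neurons of adult mice of strain 129P2/OlaHsd and mixed sex, without treatment. The cells were sorted by fluorescence from OMP-GFP mice, in which the olfactory marker protein gene drives the reporter. There was 1 group of 2 biological replicates, made from 3000000 and 1500000 cells and fixed in 1% formaldehyde. The authors pooled both replicates into a single contact map on GRCm38 before they called boundaries, so no value below has a spread between replicates and no comparison below is a test. RNA was not measured here, so the identity of the sorted cells could not be checked against marker genes, and nothing is known here of the expression of the 7 genes in these libraries.

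Most cells hold ORs back in the endoplasmic reticulum. The receptor transporting proteins RTP1 and RTP2 help receptors reach the surface, and REEP1 was found in the same search for helpers. Reep6 encodes a relative of REEP1, and no role of it in bringing ORs to the surface is claimed here. In mouse olfactory neurons, receptor protein in the endoplasmic reticulum activates the kinase PERK, encoded by Eif2ak3, which phosphorylates the initiation factor eIF2a and so favours translation of the transcription factor ATF5. This signal ends the activity of the histone demethylase LSD1, encoded by Kdm1a, which is needed to start OR transcription, and further receptors are not chosen.

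A boundary here is a 5 kb interval that separates neighbouring contact domains. The list held 8058 boundaries and gave each the authors' strength, a score whose scale is not stated. Strengths ran from 0.2 to 4.32, with a median of 0.509. It called 4092 Strong (50.8%) and 3966 Weak, and in the values the classes meet at 0.5. A distance is the gap in kb between the 5 kb bin of a transcription start site (TSS) and the bin of a boundary, and upstream and downstream follow the direction of transcription. A domain is the interval between the boundaries on either side of a TSS.

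The 7 genes did not share a position relative to boundaries. From the nearest to the farthest, the boundary closest to the TSS lay 5 kb away at Atf5, 30 kb at Kdm1a, 40 kb at Rtp1, 45 kb at Rtp2, 65 kb at Eif2ak3, 125 kb at Reep1 and 155 kb at Reep6. Rtp1 and Rtp2 differ by the width of a bin, the smallest difference the list can show. The median was 45 kb for the 7 genes and 60 kb for all coding genes. A boundary lay within 20 kb of the TSS at 1 of the 7 genes (14.3%, 95% exact Clopper-Pearson interval 0.361 to 57.9%), against 21.2% of coding genes, and it was Weak. A Strong boundary lay that near at 0 of the 7 genes, against 13.7% of coding genes. Within 50 kb the count was 4 of 7, against 44.9% of coding genes. These shares lie near their background, and the interval covers the counting of genes only.

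**Figure D1:**
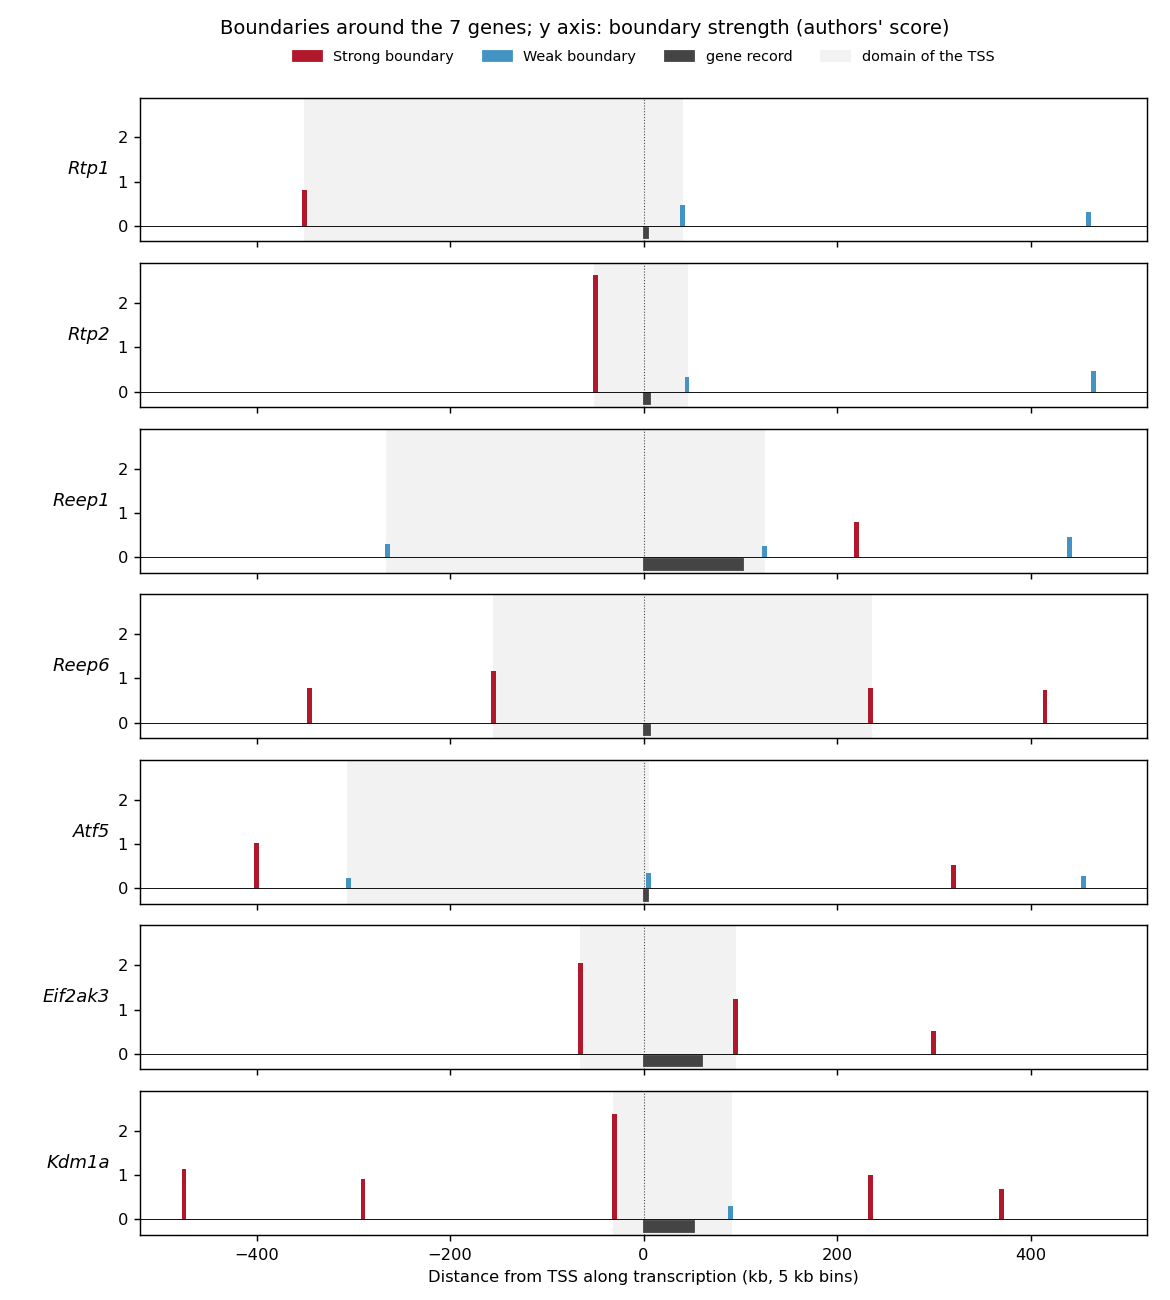
Boundaries within 500 kb of each TSS, with the distance from the TSS in kb along transcription on the x axis and the authors' boundary strength on the y axis. Red bars are Strong and blue bars Weak boundaries, the grey field is the domain that holds the TSS and the dark bar is the gene record. The tallest bars next to a gene stand upstream of Rtp2 (2.64), Kdm1a (2.39) and Eif2ak3 (2.05), and at Atf5 a Weak boundary lies on the gene.

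With Weak and Strong boundaries both counted, domain sizes fell into a large and a small set. Rtp1, Reep1 and Reep6 each lay in a domain of 390 kb, larger than that of 73.1% of coding genes, and Atf5 in one of 310 kb. Eif2ak3 lay in a domain of 160 kb, Kdm1a in one of 120 kb and Rtp2 in one of 95 kb. Only 0.657% of coding genes had a smaller domain than Rtp2, 3.52% a smaller one than Kdm1a and 12.7% a smaller one than Eif2ak3. The domains of Rtp2 and Kdm1a each ended at 1 Weak boundary, of 0.320 and 0.298. With Strong boundaries only they measured 905 and 265 kb, and 76.5% and 15.3% of coding genes had a smaller Strong domain. That of Eif2ak3 stayed at 160 kb. With all boundaries counted, the median was 310 kb for the 7 genes and 275 kb for the 20851 coding genes with a domain. A domain of 120 kb or less was found at 2 of the 7 genes (exact 95% interval 3.67 to 71.0%), against 4.18% of coding genes, a limit set after the values were seen. All 7 genes had a domain, and 4.16% of coding genes had none because the TSS shared a bin with a boundary or lacked one on a side. The 3 small domains are also the 3 with a flank of strength 2 or more, a limit set after the values were seen. Such a flank was found at 3 of the 7 genes (exact 95% interval 9.9 to 81.6%), against 9.61% of coding genes. The genes were chosen by name and the limit followed the values, so this interval is not a test.

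**Figure D2:**
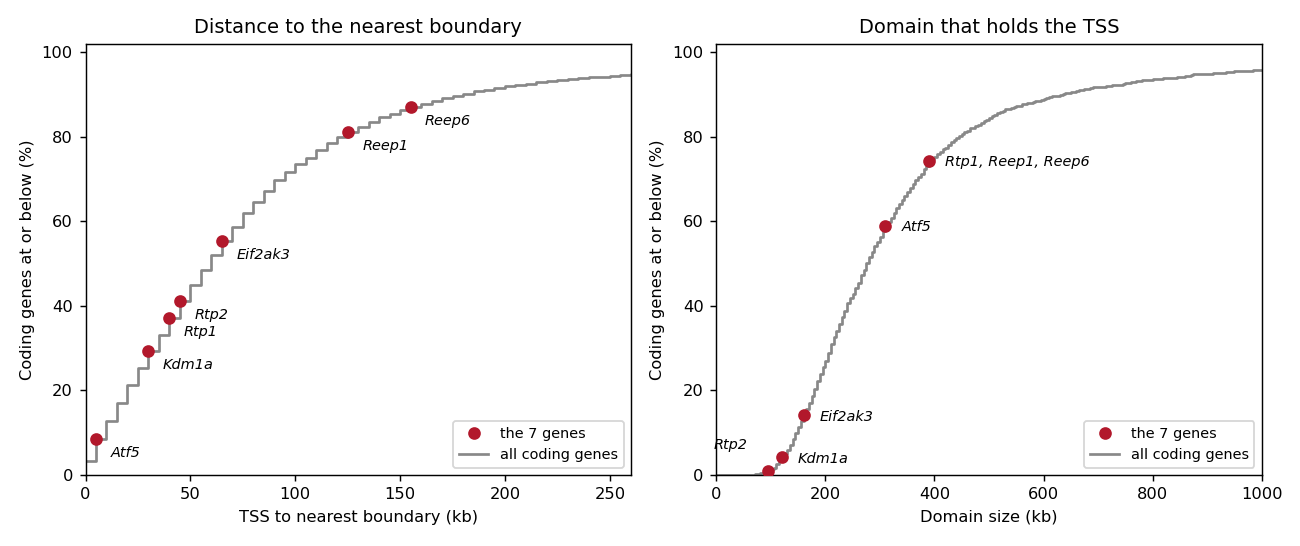
Share of coding genes (y axis, %) with a nearest boundary (left) or a domain (right) of at most the size on the x axis in kb; red points are the 7 genes and the grey line is all coding genes. The genes spread along the left curve from 5 to 155 kb, and on the right Rtp2 (95 kb) and Kdm1a (120 kb) sit at its foot.

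The sequences that bear on the flanks are the matches to the core consensus of CTCF, a DNA-binding protein known to halt loop extrusion by cohesin. Of the 14 boundaries that flank the 7 genes, 6 (42.9%, exact 95% interval 17.7 to 71.1%) had an exact core match within 20 kb on either strand, against 21.9% of all boundaries and 27.2% of the flanks of coding genes counted gene by gene. The interval takes the 14 flanks as independent, although they come in pairs around 7 genes. With 1 mismatch allowed the count was 13 of 14, against 76.3% of all boundaries, and no share is given here for the flanks of coding genes. The 6 flanks held 7 matches. The downstream flank of Rtp2 was Weak and the others of these 6 were Strong. No share by class is given here for all boundaries. Each match is shown 5′ to 3′ on its own strand, from GRCm38.p6, with the core in capitals and 4 bases on each side in lower case:
Rtp2 upstream flank, chr16:23984363-23984376, plus strand, in an intron of Bcl6: cctaCCACTAGGTGGCGGactc
Rtp2 downstream flank, chr16:23898437-23898450, minus strand, outside coding genes: ggagCCAGCAGAGGGCAGagga
Reep6 upstream flank, chr10:80175687-80175700, plus strand, outside coding genes: attgCCACCAGGTGGCAGccac
Reep6 downstream flank, chr10:80548854-80548867, minus strand, in an intron of Rexo1: ctggCCACCAGAGGGCGCttac
Reep6 downstream flank, chr10:80557493-80557506, minus strand, in an intron of Rexo1: aatgCCAGCAGGGGGCGCtgca
Eif2ak3 upstream flank, chr6:70798029-70798042, minus strand, outside coding genes: ctgaCCACTAGAGGGCACcacc
Kdm1a upstream flank, chr4:136621502-136621515, minus strand, outside coding genes: atcaCCACTAGATGGCAGaagg
The coordinates are those of the capitals.

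Read in the direction of the core, 4 of the 7 matches point toward the TSS of the gene whose domain they flank and 3 point away. The domain of Reep6 has matches at both flanks, and all 3 of them face inward. The domain of Rtp2 also has matches at both flanks, and there both face outward. Matches at both flanks were thus found at 2 of the 7 genes (exact 95% interval 3.67 to 71.0%), against 8.92% of coding genes with a domain. The match near the upstream flank of Eif2ak3 points away from the gene, and the one near the upstream flank of Kdm1a points toward it. No exact match lay within 20 kb of the flanks of Rtp1, Reep1 or Atf5. Their domains held 1, 1 and 2 exact matches, all over 20 kb from any boundary. The domains of Reep6 and Eif2ak3 held 6 and 5, of which 3 and 4 lay that far. In those of Rtp2 and Kdm1a, with 2 and 1, none did. A match describes the sequence and does not show that CTCF was bound. The sequence is that of the reference, which is of a different strain from the mice used here.

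Rtp1 (ENSMUSG00000033383.6, chromosome 16 at 23429133 to 23433960, plus strand) encodes the receptor transporting protein best known for helping ORs reach the cell surface. Its upstream boundary lay 350 kb away, a Strong one of 0.821 at 23075001 to 23080000, on coding exons and UTR of Kng1, a kininogen gene. Its downstream boundary lay 40 kb away, a Weak one of 0.465 at 23465001 to 23470000, on coding exons and UTR of Masp1, a complement protease gene. The TSS of Rtp1 therefore stood near the downstream end of its domain, 89.7% of the way from the upstream boundary. The coding TSSs between the same boundaries were those of Eif4a2, a translation initiation factor gene, Rfc4, a replication factor gene, Adipoq, the adiponectin gene, and St6gal1, a sialyltransferase gene. The nearest of them, St6gal1, started 204.4 kb from Rtp1. By gene records, the nearest coding start downstream was that of Rtp4, 91.2 kb away and beyond the Weak boundary. The other annotated coding starts of Rtp4 lay farther away.

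Rtp2 (ENSMUSG00000047531.9, chromosome 16 at 23925548 to 23932394, minus strand) encodes the second receptor transporting protein of olfactory neurons. It lay almost in the middle of its 95 kb domain, 50 kb from the upstream and 45 kb from the downstream boundary. The upstream boundary, at 23980001 to 23985000 in an intron of the transcriptional repressor gene Bcl6, had a strength of 2.64 and rank 46 of 8058. The TSSs of Gm37419 and Bcl6 were the 2 coding starts within 20 kb of it. The downstream boundary was Weak, with a strength of 0.320 and rank 5719, and lay at 23885001 to 23890000 on coding sequence and UTR of Sst, the somatostatin gene. Sst was the other coding gene with its TSS in this domain, 41.4 kb from that of Rtp2. At 95 kb, with 2 coding TSSs, this was the smallest domain among the 7 genes.

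The boundaries between the Rtp genes of chromosome 16 were all Weak. The TSSs of Rtp1 and Rtp2 lay 503.3 kb apart, with 2 boundaries between them, of 0.465 and 0.320, and the coding starts of Rtp4, Masp1 and Sst. Rtp4, a family member better known as an interferon-induced gene and named here after its values were seen, lay in the domain between those 2 boundaries, which measured 420 kb. Each of its 5 annotated coding start positions lay in that same domain, that of the gene record 55 kb from a boundary and the others 135 to 140 kb. The 3 Rtp genes thus lay in 3 adjacent domains of 390, 420 and 95 kb. With Strong boundaries only, all of them fell into a single domain of 905 kb with 9 coding TSSs, bounded by the strengths 0.821 and 2.64. That domain was larger than the Strong domain of 76.5% of coding genes.

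**Figure D3:**
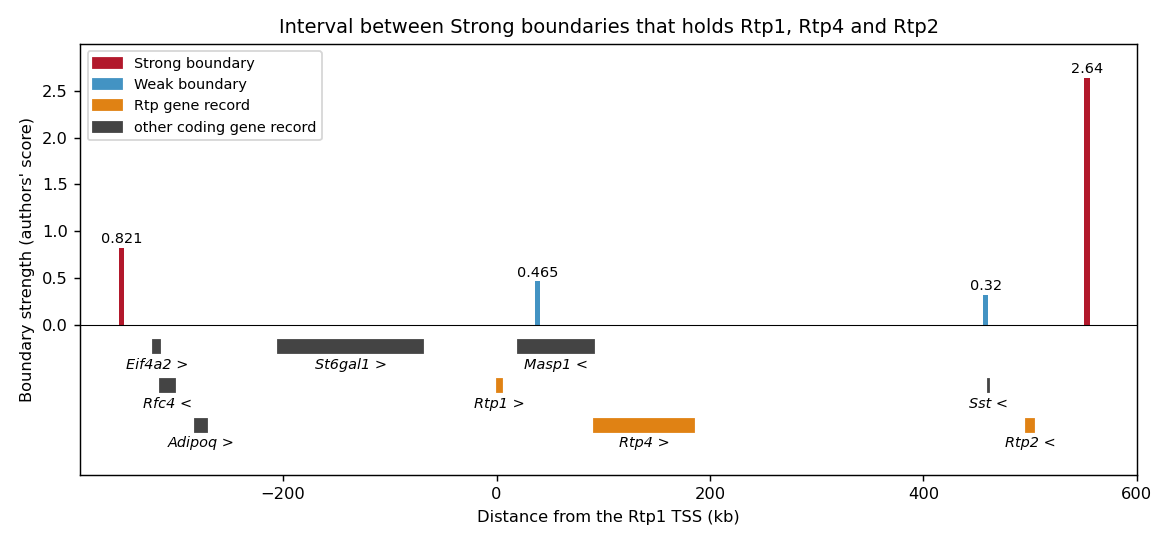
The interval between the Strong boundaries of 0.821 and 2.64 on chromosome 16, with the distance from the Rtp1 TSS in kb on the x axis and the authors' boundary strength on the y axis. Orange bars below the axis are the records of Rtp1, Rtp4 and Rtp2, dark bars other coding genes, and > and < give the strand; Weak boundaries of 0.465 and 0.320 separate the 3 Rtp genes.

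Reep1 (ENSMUSG00000052852.8, chromosome 6 at 71707561 to 71810710, plus strand) encodes a membrane protein that shapes the endoplasmic reticulum. At 103 kb it was the longest of the 7 genes. Both of its flanks were Weak, stronger than 24.2% and 13.1% of boundaries. The upstream one, of 0.292, lay 265 kb away at 71440001 to 71445000 in the bin of the TSS of Rmnd5a, a ubiquitin ligase subunit gene. The downstream one, of 0.246, lay 125 kb away at 71830001 to 71835000 in the bin of the TSS of Immt, a gene of the mitochondrial cristae. The end of the gene lay 19.3 kb from the downstream one. Rnf103, Chmp3, Kdm3a and Mrpl35 had their TSSs in the same 390 kb domain, and Kdm3a, another histone demethylase gene, was the nearest at 74.6 kb. The nearest Strong boundary lay 220 kb away, and between Strong boundaries the domain grew to 785 kb. Of coding genes 50 to 150 kb long, 25.5% had a boundary on the gene record, and Reep1 had none.

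Reep6 (ENSMUSG00000035504.16, chromosome 10 at 80329953 to 80336441, plus strand) encodes a relative of REEP1 known from rod photoreceptors. With Weak and Strong boundaries both counted, it was the gene of the 7 farthest from a boundary, at 155 kb, and 86.4% of coding genes had a nearer one. That boundary was Strong, and 64.6% of coding genes had a nearer Strong one. Rtp1 (350 kb), Atf5 (320 kb) and Reep1 (220 kb) lay farther from a Strong boundary. Both of its flanks were Strong, of 1.16 upstream at 80170001 to 80175000 and 0.786 downstream at 80560001 to 80565000, 235 kb from the TSS. The upstream flank lay on Cirbp, a cold-inducible RNA binding protein gene, and in the bin of the TSS of 1600002K03Rik, and the downstream flank in that of Rexo1. The domain held 18 coding TSSs, more than the domain of 88.0% of coding genes. Its nearest starts were those of Pcsk4, a proprotein convertase gene on the opposite strand, 455 bases upstream, and Adamtsl5, 18.5 kb downstream. Another coding TSS within 1 kb was found at 12.7% of coding genes. With 110 other coding TSSs within 1 Mb on either side, Reep6 lay in a denser region than 99.0% of coding genes, and the GC content of the 25 kb around its TSS was 56.1%, against a median of 44.6% for coding genes.

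Eif2ak3 (ENSMUSG00000031668.14, chromosome 6 at 70844515 to 70905245, plus strand) encodes PERK, the stress sensor kinase of the endoplasmic reticulum. It lay between 2 Strong boundaries, 65 kb upstream and 95 kb downstream. The upstream one had a strength of 2.05 and rank 254, and lay at 70775001 to 70780000 on coding sequence of Rpia, a pentose phosphate pathway gene. The downstream one had a strength of 1.25 and lay at 70935001 to 70940000, outside coding genes. The only other coding TSSs between them were those of Rpia, 52.3 kb upstream, and Tex37, 74.4 kb downstream, a gene named for its expression in testis. The whole 60.7 kb gene lay inside the domain, 29.8 kb short of the downstream boundary. Since both flanks were Strong, the Strong domain was the same 160 kb, and only 2.28% of coding genes had a smaller one. Beyond the upstream flank the next boundary followed at 1060 kb from the TSS, and the count within 1 Mb was 5 boundaries, against a median of 7 for coding genes.

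Eif2ak3 and Reep1 both lie on chromosome 6, with their TSSs 863 kb apart. Between them stood 3 boundaries of 1.25, 0.518 and 0.292, of which 2 were Strong, and 12 other coding TSSs. Unlike Rtp1 and Rtp2, this pair was separated by Strong boundaries as well as a Weak one.

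Atf5 (ENSMUSG00000038539.15, chromosome 7 at 44812256 to 44816658, minus strand) encodes the transcription factor whose translation rises when eIF2a is phosphorylated. It was the 1 gene of the 7 with a boundary on its record, against 15.9% of coding genes and 5.72% of coding genes under 10 kb long, the class Atf5 belongs to. The boundary, at 44810001 to 44815000, was Weak, with a strength of 0.347 and rank 5405. It covered 2745 of the 4403 bases of the record (62.3%), counted from the 3′ end, with 683 of 849 coding bases. The record TSS lay 1658 bases outside the interval, and all 3 annotated coding start positions fell in the next bin. Those of Il4i1, an amino acid oxidase gene, and Nup62, a nuclear pore gene, fell in that bin too, 271 bases from the Atf5 TSS for Il4i1. The listed interval thus lies on the gene body and not on these start positions. The list moves in steps of 5 kb, so whether the domain edge itself lies on the gene body or at the promoters cannot be told apart.

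On the upstream side of Atf5 the next boundary lay 305 kb away, a Weak one of 0.235. The domain between held 22 coding TSSs, more than the domain of 92.0% of coding genes, and the nearest one upstream of Atf5 was that of Akt1s1, an mTORC1 subunit gene, at 32.3 kb. The nearest Strong boundary lay 320 kb away, farther than for 85.7% of coding genes, and between Strong boundaries Atf5 lay in a domain of 720 kb with 43 coding TSSs. With 115 other coding TSSs within 1 Mb on either side it lay in a denser region than 99.6% of coding genes. Atf5 and Reep6 were alike in the number of coding starts around them, 115 and 110, while boundaries within 1 Mb numbered 8 and 11. With Weak and Strong boundaries both counted, they lay at opposite ends of the 7 genes in distance to a boundary. With Strong boundaries only the order of the pair was reversed, with Reep6 at 155 kb and Atf5 at 320 kb.

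Kdm1a (ENSMUSG00000036940.15, chromosome 4 at 136550540 to 136602723, minus strand) encodes LSD1, the histone demethylase of the feedback. Its upstream boundary lay 30 kb from the TSS and had a strength of 2.39 and rank 112, at 136630001 to 136635000 on coding sequence of Lactbl1. Its downstream boundary was Weak, of 0.298, and lay 90 kb away at 136510001 to 136515000 in an intron of Luzp1. The 52.2 kb gene took up much of the 120 kb domain, and the other coding TSSs in it, Tex46 at 7.7 kb and Lactbl1 at 19.9 kb, both lay upstream on the opposite strand. Of the 5 coding start positions of Kdm1a, 3 lay within 0.41 kb of each other and 2 were internal starts 25.57 and 34.12 kb into the gene, which lay 55 kb from a boundary. Within 1 Mb on either side there were 12 boundaries, more than around 98.8% of coding genes, of which 9 were Strong. Boundaries were thus dense around Kdm1a, at 38 other coding TSSs within 1 Mb, while Reep6 had 11 boundaries and 110 such TSSs.

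The stronger flank stood upstream of the TSS at 6 of the 7 genes, with Atf5 as the exception, against 51.5% of coding genes. The exact 95% interval of that share, 42.1 to 99.6%, includes this value, but it covers the counting of genes only and is not a test. At Reep1 the flanks differed by little, 0.292 and 0.246, and the scores carry no error here. The differences were wide at Rtp2, 2.64 and 0.320, at Kdm1a, 2.39 and 0.298, and at Eif2ak3, 2.05 and 1.25. The nearer flank stood upstream at 3 of the 7 genes, against 51.7% of coding genes. Both flanks were Strong at 2 of the 7 genes (38.6% of coding genes), both Weak at 2 (12.7%) and mixed at 3 (48.7%). Of the 14 flanks 7 were Strong (50%), against 62.9% of the flanks of coding genes.

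**Figure D4:**
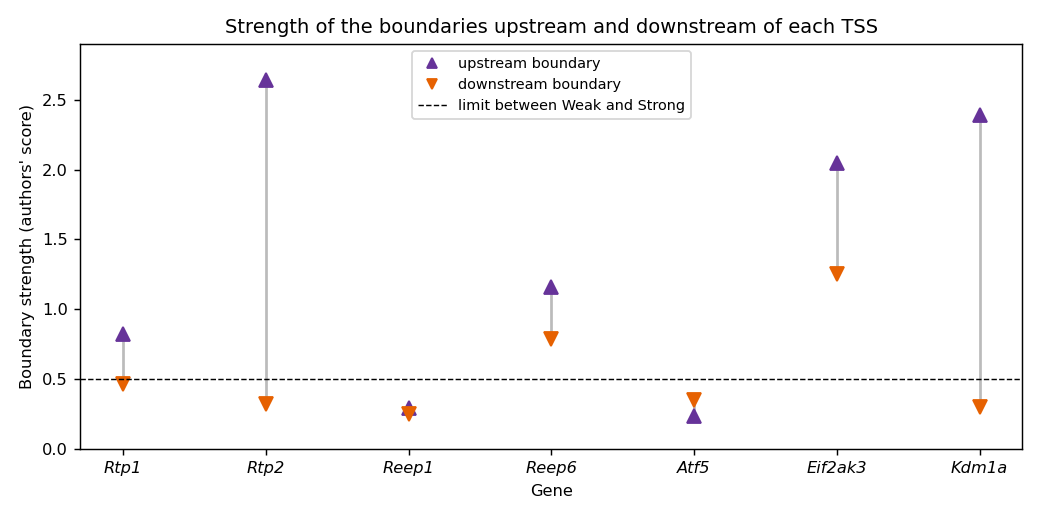
The authors' strength (y axis) of the boundary upstream (purple) and downstream (orange) of the TSS of each gene; the dashed line at 0.5 is where the classes meet. The upstream boundary is the stronger one at 6 genes, by most at Rtp2 and Kdm1a, and both flanks of Reep1 and of Atf5 are Weak.

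A coding TSS of any gene lay within 20 kb of 12 of the 14 flanks (85.7%, exact 95% interval 57.2 to 98.2%), against 64.1% of the flanks of coding genes and 37.6% of all boundaries. The interval takes the 14 flanks as independent, although they come in pairs around 7 genes, and it is not a test. The exceptions were the downstream flanks of Rtp1, on Masp1, and of Kdm1a, in Luzp1. At the 12 others the start within 20 kb belonged to a gene other than the 7 described, and Atf5 itself had its start there as well. The flanks had a GC content of 39.7 to 55.1% (median 45.4%) over 25 kb, against a median of 42.4% for all boundaries, and 1.84 to 2.84 DpnII sites per kb, against a median of 2.52. No such values are given here for the flanks of coding genes, so the differences cannot be called particular to the 7 genes. DpnII is the enzyme that cut the chromatin, and its part in the calls was not tested.

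Related genes, in 5 lists, were set beside the 7 as context. Near means within 20 kb of the TSS here. The other RTP and REEP genes, Rtp3, Rtp4, Reep2, Reep3, Reep4 and Reep5, had a boundary that near at 0 of 6, with a median distance of 95 kb and a range of 45 to 230 kb. The other genes of the unfolded protein response, the programme that answers misfolded protein in the endoplasmic reticulum, had one at 9 of 29 (31.0%). Those with the strongest boundary there were Sel1l, a subunit of the degradation machinery of the endoplasmic reticulum (1.99, 5 kb away), Atf6, a stress sensor of the same membrane (1.08, 20 kb away), and Manf, a secreted stress protein gene (0.783, 10 kb away). The other genes of the eIF2a branch had one at 5 of 23 (21.7%). There the strongest lay near Eif2s1, which encodes eIF2a, the substrate of PERK (1.69, 20 kb away), Eif2s2, another eIF2 subunit gene (1.15, 10 kb away), and Atf4, the relative of Atf5 under the same translational control (0.988, 10 kb away).

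Relatives and partners of LSD1 had a boundary within 20 kb at 2 of 15 (13.3%), Gfi1b (0.891, 20 kb away) and Rest (0.745, 10 kb away), which encode repressors that recruit LSD1. Of 4 genes of mature olfactory neurons, 3 of odorant transduction and the olfactory marker protein gene, Gnal had one (2.31, 15 kb away). Adcy3, the cyclase gene that lies between ATF5 and the end of LSD1 activity and was named after its values were seen, had its nearest boundary 45 kb away, with a strength of 1.28. Set against 21.2% of all coding genes, the lists ran from 0 of 6 to 31.0%, and median distances from 45 to 95 kb. No list was tested, and the smallest has 4 genes.

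**Figure D5:**
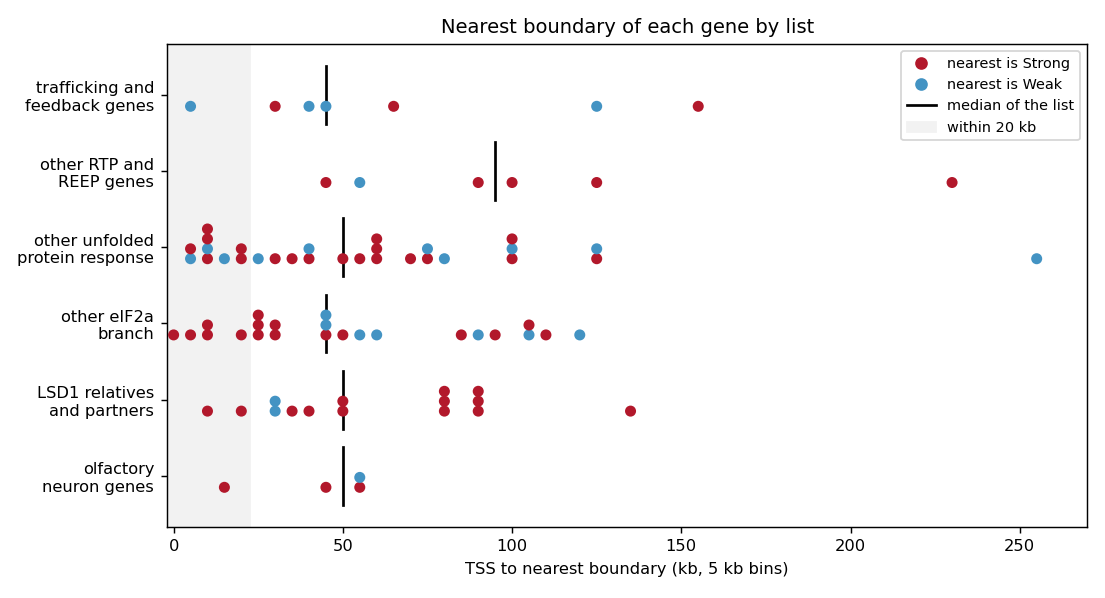
Distance from the TSS to the nearest boundary in kb (x axis) for each gene of the 6 lists (rows); red points have a Strong and blue points a Weak nearest boundary, black lines are medians and the grey field marks 20 kb. The 7 trafficking and feedback genes (top, median 45 kb) spread from 5 to 155 kb, and none of the other RTP and REEP genes lies in the grey field.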

How the data were processed

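The deposited list, derived by the authors from 1 contact matrix of both replicates per the series design text, gives 5 kb intervals on GRCm38, a class and the authors' boundary strength, a score of unstated scale. The boundary caller and aligner are not given in the sources used, and contact depth is unknown. Genes and TSSs (5′ ends of gene records) came from GENCODE mouse release 21, and bases from the GRCm38.p6 reference, both of the list's build. Of 21755 coding genes, 904 had no domain, 687 because the TSS shared a bin with a boundary and the others for lack of a boundary on a side. CTCF core matches were exact, on either strand, 6562 in all. GC content and DpnII sites were taken over 25 kb.

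Genes named were the 7, coding genes of their domains (where over 10, the nearest start on each side), the coding gene that starts nearest to each flank, if within 20 kb, and up to 3 genes per list with the strongest boundary within 20 kb. Masp1, Luzp1, Bcl6 and Cirbp, which lie on flanks, and Rtp4 and Adcy3 fall outside this rule and were named after their values were seen. The set of 7 and the lists were chosen by name, with earlier results of these data known. Where a symbol had 2 records the longer was kept. The procedures were tested on simulated boundaries. Python 3.11.15, numpy 2.4.6, pandas 2.3.3 and scipy 1.17.1 were used. Alternatives kept Strong boundaries or the top 25% of strengths, or used other windows, start sites, domain anchors and motif rules. The gene at 1 flank of Atf5 is not reported here.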

Additional observations from a re-analysis of the deposited data

How the results depend on the processing

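The count of genes with a boundary within 20 kb of the TSS stayed at 1 of 7 within 10 kb, with any coding start position and with distances in bases. It was 0 with Strong boundaries only, 0 when the top 25% of strengths were kept, and 4 within 50 kb. The boundary on Atf5 was lost with Strong boundaries only (0 of 7 genes) and when the whole interval had to lie in the gene (0), since Atf5 is shorter than the interval. The median domain of the 7 genes was 275 kb when anchored at the gene midpoint, over 6 genes because that of Atf5 lies in a boundary bin. It was 720 kb with Strong boundaries only and 1155 kb in the top 25% of strengths, as fewer boundaries leave larger domains. The share of coding genes with a boundary near the TSS was 13.7% with Strong boundaries only, 12.8% within 10 kb and 44.9% within 50 kb. With 1 mismatch allowed, 13 of the 14 flanks had a CTCF core match, against 76.3% of all boundaries, and 5 had an exact one within 10 kb. Of 18 alternatives for the main counts, shares and medians, 7 moved by at most 1.5 times and 11 by more. Of 37 alternatives for single genes and lists, 27 moved by at most 1.5 times. Among the 10 others, Strong boundaries alone took the nearest boundary of Rtp1 to 350 kb and that of Atf5 to 320 kb, and the domain of Rtp2 to 905 kb. No paired analysis was possible because the list was called on pooled replicates of 1 group, and no replicate could be left out. How deeply contacts were sequenced is unknown, and it bounds how faint a boundary can be and still be listed.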

Other observations

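Promoters of 5 of the 7 genes were in the RefSeq promoter table (GRCm38.p6), with 2 windows for Atf5, and each window spans 300 bases. The window of Rtp2 surrounds its inner start, 1.6 kb from the TSS used above. Letters were searched on either strand in these 6 windows and in 20061 windows of coding genes. The CTCF core was found in 0 of the 6 windows, against 0.334% of all. The letters CCCNNGGG, the palindrome of Ebf factors, were found in the windows of Rtp2 and Reep1, against 16.1% of all. The letters TAATTA, bound by homeodomain factors such as Lhx2, were found in 0 of the 6, against 4.39%. The cAMP response element TGACGTCA was found in 0 of the 6, against 2.32%.

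The letters CCAAT, bound by the factor NF-Y, were searched after the sequences had been seen. They stood 6 times in the window of Eif2ak3, once each in that of Kdm1a and the inner one of Atf5, and in none of the others. A match was found in 37.9% of windows of coding genes, and 18 of the 20061 (0.0897%) had 6 or more, with 8 as the highest count. The window of Eif2ak3, chr6:70844265-70844564, plus strand, is shown with CCAAT and its reverse complement in capitals:
Eif2ak3 promoter: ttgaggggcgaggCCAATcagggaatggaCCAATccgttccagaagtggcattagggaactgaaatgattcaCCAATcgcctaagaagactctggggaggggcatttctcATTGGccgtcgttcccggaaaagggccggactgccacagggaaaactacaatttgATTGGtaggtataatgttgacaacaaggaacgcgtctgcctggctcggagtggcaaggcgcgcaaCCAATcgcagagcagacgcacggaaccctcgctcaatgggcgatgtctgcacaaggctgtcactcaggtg
This window lay 65 kb from the nearest boundary, so the list itself has no value on it, and no occupancy was measured here. The promoter letters, too, are those of the reference and not of the strain of the mice.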
